A study of Rattus norvegicus with 16 samples.

Results

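The insulin-like growth factor (IGF) genes measured here were 10: the ligands Igf1 and Igf2, the receptors Igf1r and Igf2r, and the binding proteins Igfbp2, Igfbp3, Igfbp4, Igfbp5, Igfbp6 and Igfbp7. A probe set, a group of short probes on the array that are read together, was taken where the platform annotation gave it 1 gene symbol and that symbol was one of these. They were 10 of the 14217 genes named on the array, with 23 of 31042 probe sets: 3 for Igf1, 4 for Igf2, 2 each for Igf1r, Igf2r, Igfbp3 and Igfbp6, 5 for Igfbp5 and 1 each for Igfbp2, Igfbp4 and Igfbp7. Within a gene the probe sets are numbered from the brightest, number 1, by their mean over all arrays. Of the 23, 1 lay below the 40th percentile of mean level (5.61 on the log2 scale), the fourth of Igf2.

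The samples were soleus muscles, a postural muscle of mostly slow fibres, from 16 female rats of generation 16 of 2 lines descended from the N:NIH stock. The HCR line was bred for high treadmill running capacity and the LCR line for low capacity, each generation being tested at 11 weeks of age. HCR trained and LCR trained rats (4 of each) ran uphill at 25 degrees for 1.5 hours a session on 5 days per week for 8 weeks, in intervals that reached 85 to 90% of maximal oxygen uptake, which was measured weekly in these rats. HCR sedentary and LCR sedentary rats (4 of each) were handled alike but had neither training nor uptake tests. The animals' age at death was about 7 months, and the last session lay 48 hours back. Each array held total RNA from 20 mg of 1 rat's muscle, so n = 4 rats in every group.

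IGF1 and IGF2 are small secreted proteins related to insulin. IGF1 reaches muscle from the liver through the blood and is also made within muscle, and both ligands act mainly through the IGF1 receptor, a tyrosine kinase that signals through PI3K, AKT and mTOR to protein synthesis, growth and survival of muscle cells. The IGF2 receptor does not signal in this way: it takes up IGF2 and delivers it to lysosomes, and it sorts lysosomal enzymes. The binding proteins hold most IGF outside cells and so set how much reaches the receptors.

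For Igf1, Igf2 and Igf2r, whose brightest probe sets varied together across the arrays, the reference sequence upstream of the annotated start is shown so that the 3 can be set side by side. Each sequence is the 250 bases before a gene's start in RefSeq (assembly GRCr8), written 5′ to 3′ along the gene's strand, with capitals marking matches to 4 motifs searched on both strands. RefSeq listed 2 starts for Igf2.
Igf1, chr7:24172282-24172531, plus strand: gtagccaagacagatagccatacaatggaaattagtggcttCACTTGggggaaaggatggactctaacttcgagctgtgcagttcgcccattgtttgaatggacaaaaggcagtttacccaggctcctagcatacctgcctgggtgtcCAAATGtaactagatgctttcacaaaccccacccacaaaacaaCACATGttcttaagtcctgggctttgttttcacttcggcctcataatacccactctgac
Igf2, chr1:207250476-207250725, minus strand: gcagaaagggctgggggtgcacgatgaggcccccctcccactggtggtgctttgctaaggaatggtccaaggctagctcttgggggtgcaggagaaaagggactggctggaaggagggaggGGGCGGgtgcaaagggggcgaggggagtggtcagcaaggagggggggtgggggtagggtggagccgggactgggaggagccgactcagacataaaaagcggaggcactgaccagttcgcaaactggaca
Igf2, second start, chr1:207253981-207254230, minus strand: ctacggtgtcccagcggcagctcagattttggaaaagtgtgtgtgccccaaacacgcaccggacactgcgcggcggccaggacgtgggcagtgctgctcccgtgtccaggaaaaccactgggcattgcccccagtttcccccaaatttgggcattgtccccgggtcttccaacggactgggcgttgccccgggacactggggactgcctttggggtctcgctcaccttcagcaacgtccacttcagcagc
Igf2r, chr1:50526628-50526877, plus strand: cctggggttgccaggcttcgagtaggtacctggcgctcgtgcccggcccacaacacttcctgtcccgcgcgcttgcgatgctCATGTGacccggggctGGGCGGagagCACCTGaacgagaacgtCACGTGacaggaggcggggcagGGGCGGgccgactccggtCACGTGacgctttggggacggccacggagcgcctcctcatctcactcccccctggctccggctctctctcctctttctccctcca
The motifs were the TATA box TATAAA, the CCAAT box CCAAT, the GC box GGGCGG and the E box CANNTG, and of 33465 windows of the same length over all genes 12.93%, 34.02%, 30.47% and 65.55% held them in that order. The Igf1 window held 3 E boxes, the first Igf2 window 1 GC box and the Igf2r window 2 GC boxes and 4 E boxes. No motif was found in the second Igf2 window. The Igf2r window was rich in CpG, with 23 CpG dinucleotides and 68% GC, while the Igf1 window had 3 and 46.8%, against medians of 5 and 51.2% over all windows. The Igf2 windows had 7 and 15 CpG, at 63.6% and 62.4% GC. Windows were found for all 10 genes, 11 windows in all. These matches describe the letters in these windows alone.

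The deposited values are on a log2 scale and come from RMA, which equalises the arrays, so a difference is a change beyond whatever the array as a whole did. Differences between groups were tested with limma over all 31042 probe sets, with Benjamini-Hochberg adjustment within each comparison and a threshold of 0.05 for the adjusted p. The slow fibre genes that define soleus were among the brightest on the arrays: Myh7, slow myosin heavy chain, averaged 14.30 and Tnni1, slow troponin I, 13.98 over the 16 arrays. Pairs of arrays correlated at 0.941 to 0.996, and no pair was identical. The array HCR trained 3 stood apart, with a slow fibre marker mean of 11.15 against 13.57 to 13.84 on all others and the highest fast fibre mean, 13.87. The array HCR sedentary 2 had the highest fibroblast and matrix mean, 12.25, the highest macrophage and leukocyte mean, 9.21, and the lowest beta-actin control index, 0.38. That index is the signal of the 3′ beta-actin control probe set minus the middle one and varies with RNA integrity, labelling and actin expression.

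**Figure D1:**
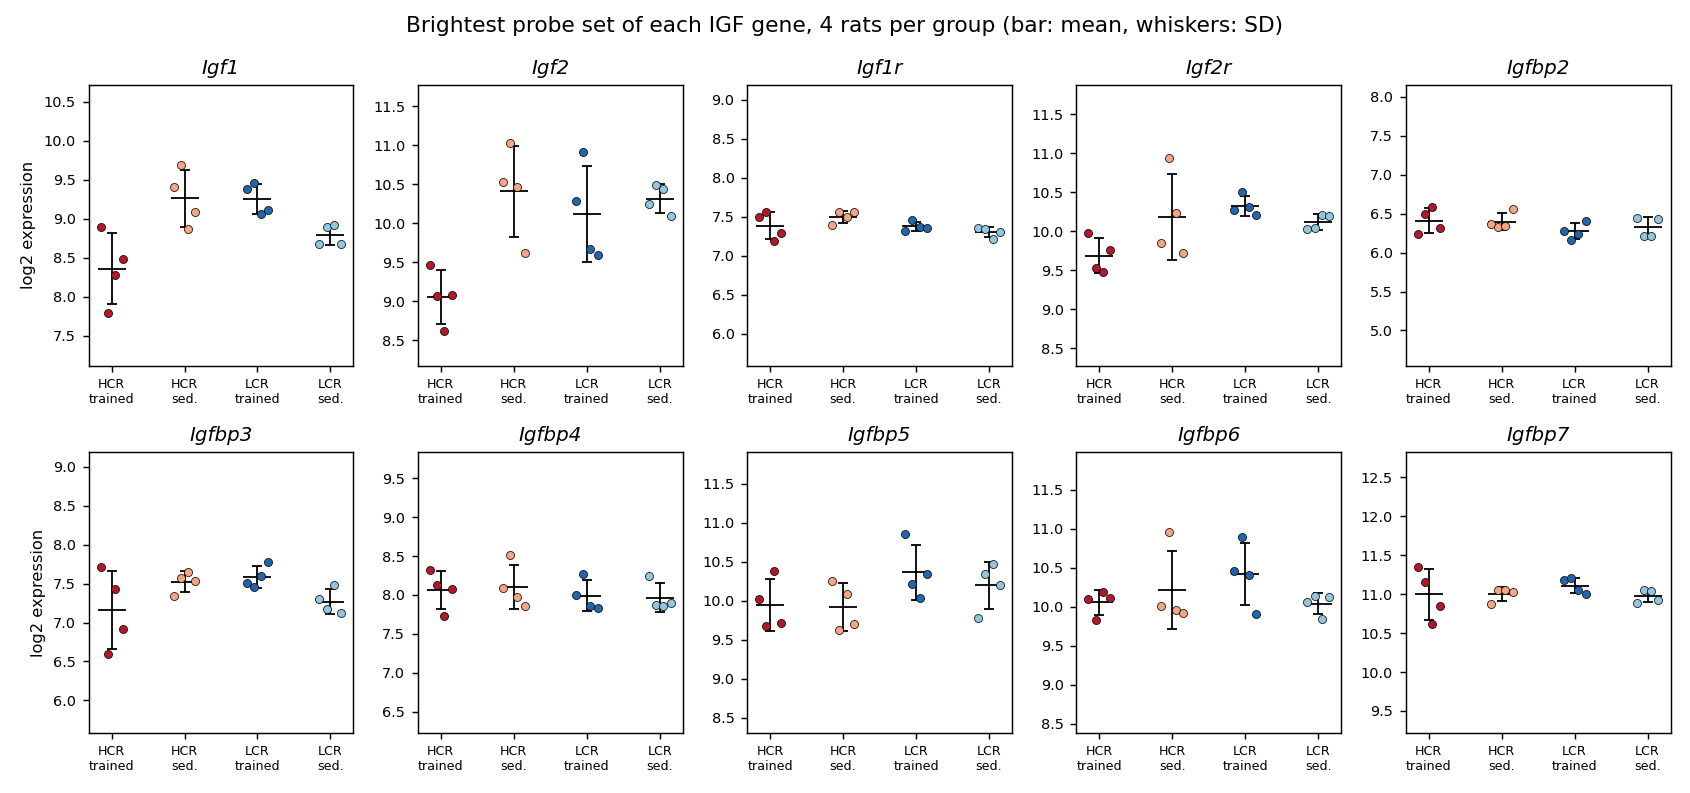
Log2 expression of the brightest probe set of each of the 10 IGF genes (y axis, the same span in every panel) in the 4 groups (x axis). Points are rats, bars are group means and whiskers are SDs (n = 4). HCR trained rats had the lowest mean of Igf1 (8.36), Igf2 (9.06) and Igf2r (9.68), while Igf1r, Igfbp2, Igfbp4 and Igfbp7 varied little between groups.

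In HCR rats, trained animals had the lower ligand signal. Igf1 averaged 8.36 ± 0.46 in HCR trained and 9.26 ± 0.36 in HCR sedentary rats (probe set 1370333_a_at, SD, n = 4), a difference of -0.90 on the log2 scale, or 1.87-fold lower. Igf2 averaged 9.06 ± 0.34 in HCR trained and 10.41 ± 0.58 in HCR sedentary rats (probe set 1367571_a_at, SD, n = 4), a difference of -1.35 or 2.55-fold lower. Igf2r was 0.50 lower in trained rats, and the 7 other genes differed by less on their brightest probe sets. None of the 23 probe sets passed the threshold in this comparison, in which 0.187% of all probe sets did (58 probe sets). Without adjustment 5 probe sets had p under 0.05, all lower in trained rats, against 7.24% of all probe sets in that direction. They were the 3 of Igf1, the first of Igf2 and the first of Igf2r.

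Igf1, the main growth-promoting ligand after birth, read 8.90, 7.79, 8.28 and 8.48 in the 4 HCR trained rats on its brightest probe set, against 9.41, 9.69, 8.87 and 9.09 in HCR sedentary rats. The highest trained rat lay just above the lowest sedentary rat, so the groups overlapped by that pair. The difference of -0.90 had an SE of 0.21, a 95% confidence interval of -1.34 to -0.46 and an adjusted p of 0.0716. Probe sets 2 and 3 of Igf1, 1388469_at and 1382599_at, gave -0.75 (adjusted p = 0.182) and -0.52 (adjusted p = 0.147). When the beta-actin index was added as a covariate, the difference on the brightest probe set was -0.47 (adjusted p = 0.643). It was -0.73 without the arrays HCR sedentary 2 and HCR trained 3 (adjusted p = 0.154). Without HCR trained 1, the highest of the trained rats, the same probe set passed, at -1.08 and an adjusted p of 0.0450. Leaving out that rat necessarily widens the difference. The probe set passed in 1 of 26 alternative settings.

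Igf2, the ligand best known from fetal growth and expressed from the paternal allele, had the largest log2 training difference of the 23 probe sets. It read 9.47, 9.06, 8.62 and 9.07 in HCR trained rats, against 10.53, 11.02, 10.46 and 9.62 in HCR sedentary rats. All 4 trained rats lay below all 4 sedentary rats, and this was the 1 probe set of the 23 with groups that did not overlap (2.67% of all probe sets were lower without overlap). The difference of -1.35 (SE 0.30, 95% confidence interval -1.996 to -0.707) had an adjusted p of 0.0671. It was -1.001 without the arrays HCR sedentary 2 and HCR trained 3 (adjusted p = 0.157) and -0.87 with the beta-actin covariate (adjusted p = 0.626). It passed at an adjusted p of 0.0356 without HCR sedentary 4, the lowest of the sedentary rats, whose removal necessarily widens the difference. Without that array 454 of all probe sets passed, against 58 as reported. Igf2 probe set 1 passed in 2 of 26 alternative settings.

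The other 3 probe sets of Igf2 did not follow the first. Their means lay between 5.21 and 5.82 in every group, near or below the 40th percentile, and their HCR training differences were between -0.03 and -0.01. Over the 16 arrays their correlations with the first probe set were -0.16 to -0.25, as a description. The Igf2 values therefore rest on 1 probe set, and averaging the 4 gave a training difference of -0.35 in HCR.

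Igf2r, the uptake receptor for IGF2, read 9.97, 9.53, 9.48 and 9.75 in HCR trained rats, against 9.85, 10.94, 10.23 and 9.72 in HCR sedentary rats. The groups overlapped, and the highest sedentary value was that of HCR sedentary 2. The difference of -0.50 (adjusted p = 0.215) was -0.18 without HCR sedentary 2 and HCR trained 3, and 0.0015 with the beta-actin covariate. The second Igf2r probe set differed by -0.08. Igf1r, the signalling receptor, differed by -0.11 (95% confidence interval -0.28 to 0.05) and by -0.27 on its second probe set.

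**Figure D2:**
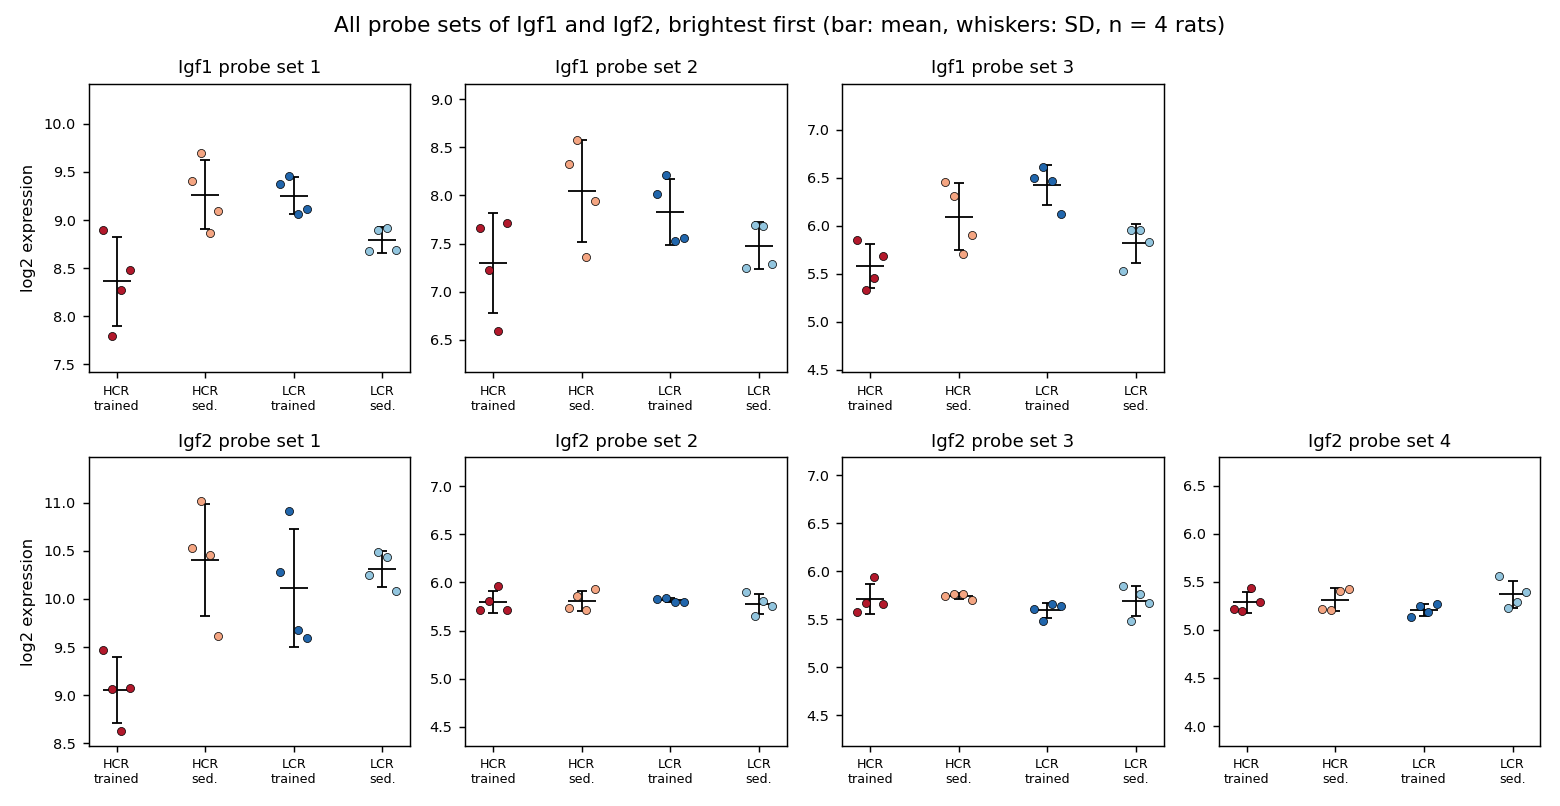
Log2 expression (y axis, the same span in every panel) of the 3 Igf1 and 4 Igf2 probe sets in the 4 groups (x axis), with each rat as a point and mean ± SD (n = 4). The 3 Igf1 probe sets have the same order of HCR trained below HCR sedentary and LCR trained above LCR sedentary, while Igf2 probe sets 2 to 4 stay between 5.1 and 6.0 in all rats.

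Among the binding proteins no probe set reached an unadjusted p under 0.05 for training in HCR. Igfbp3, the main carrier of IGF in blood, differed by -0.36 (95% confidence interval -0.75 to 0.03). Igfbp5, made by muscle cells as they differentiate, differed by -0.78 to 0.03 over its 5 probe sets, with adjusted p of 0.372 or more. Igfbp6, which binds IGF2 in preference to IGF1, differed by -0.16, and Igfbp2, Igfbp4 and Igfbp7 by 0.01, -0.05 and -0.01. Their 95% confidence intervals reached no further than 0.37 log2 units from 0 for Igfbp2, Igfbp4 and Igfbp7.

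In LCR rats the Igf1 difference had the other sign. Igf1 averaged 9.25 ± 0.19 in LCR trained and 8.79 ± 0.13 in LCR sedentary rats, a difference of 0.46, and probe set 3 differed by 0.61. None of the 23 probe sets passed the threshold (0.00322% of all probe sets did, which was 1 probe set). With an unadjusted p under 0.05 there were 3, all higher in trained rats, against 3.54% of all probe sets: Igf1 probe sets 1 and 3 and Igfbp3 probe set 2.

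Igf1 read 9.38, 9.46, 9.06 and 9.12 in LCR trained rats, against 8.68, 8.90, 8.92 and 8.68 in LCR sedentary rats on its brightest probe set. The groups did not overlap on probe sets 1 and 3, the 2 of 23 higher without overlap (2.90% of all probe sets were), and overlapped on probe set 2. The difference of 0.46 had an SE of 0.21, a 95% confidence interval of 0.02 to 0.90 and an adjusted p of 0.492. That of probe set 3, 0.61, had an adjusted p of 0.301. With the beta-actin covariate the first was 0.23. Igf2 differed by -0.20 (95% confidence interval -0.84 to 0.45), with 10.28, 10.92, 9.67 and 9.59 in LCR trained rats and 10.25, 10.49, 10.44 and 10.09 in LCR sedentary rats. The trained rats thus lay both above and below the sedentary ones.

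No receptor or binding protein passed the threshold in LCR rats, though some differences were as large as that of Igf1. Igf1r differed by 0.07 on each of its probe sets and Igf2r by 0.20 and 0.01. Igfbp3 was 0.32 and 0.30 higher in trained rats on its 2 probe sets (adjusted p = 0.592 and 0.496), and Igfbp6 0.38 and 0.52 higher (adjusted p = 0.594 and 0.560). Igfbp5 probe set 2 was 0.66 higher (95% confidence interval -0.08 to 1.39).

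**Figure D3:**
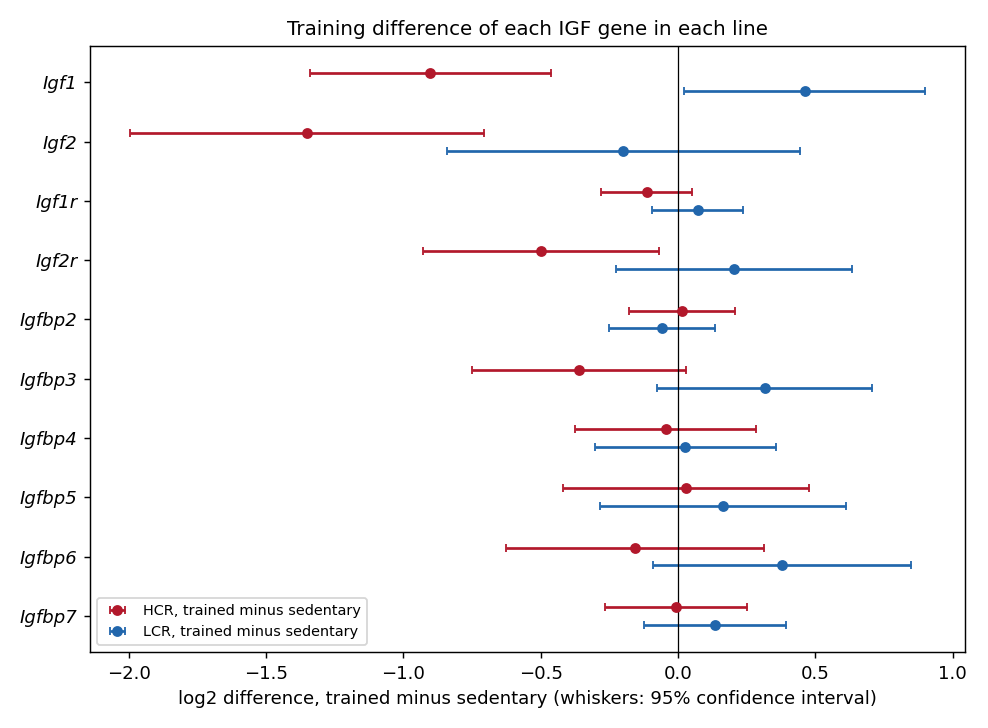
Log2 difference, trained minus sedentary (x axis), of the brightest probe set of each IGF gene (y axis) in HCR rats (red) and LCR rats (blue), with whiskers giving the 95% confidence interval from limma. The Igf1 intervals lie below 0 in HCR (-1.34 to -0.46) and above 0 in LCR (0.02 to 0.90), and no adjusted p was under 0.05.

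Whether training acted differently in the lines was tested as the HCR training difference minus the LCR one. For Igf1 this was -1.36 on probe set 1 (SE 0.29, 95% confidence interval -1.98 to -0.74), -1.10 on probe set 2 and -1.12 on probe set 3, with adjusted p of 0.0983, 0.170 and 0.0983. No probe set passed among the 23 or on the whole array (0% of 31042). With an unadjusted p under 0.05 there were 7 of 23, all negative, against 7.50% of all probe sets in that direction. Besides those of Igf1 they were Igf2 probe set 1 (-1.15, adjusted p = 0.184), Igf2r probe set 1 (-0.70, adjusted p = 0.212), Igfbp3 probe set 1 (-0.68, adjusted p = 0.194) and Igfbp5 probe set 2 (-1.14, adjusted p = 0.231). Over the brightest probe sets of the 10 genes, 9 had a negative value and the median was -0.36, beside 0.04 over all probe sets. With the beta-actin covariate Igf1 probe set 1 was at -0.70, Igf2 at -0.42 and Igf2r at 0.06. Without HCR sedentary 2 and HCR trained 3 these were -1.19, -0.80 and -0.39.

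Between the trained groups, HCR rats had the lower Igf1 signal, and 1 of the 23 probe sets passed the threshold, Igf1 probe set 3. It averaged 5.58 ± 0.23 in trained HCR rats and 6.42 ± 0.21 in trained LCR rats (SD, n = 4), 1.79-fold lower in HCR (log2 difference -0.84, SE 0.17, 95% confidence interval -1.20 to -0.49, adjusted p = 0.0478). This was a dim probe set, with a mean of 5.98 over all arrays. Its HCR trained mean lay just below 5.61, the 40th percentile of mean level, so the fold is uncertain. Of all probe sets 0.374% passed in this comparison (116 probe sets), and 0.177% of all probe sets passed lower in HCR (55 probe sets). With an unadjusted p under 0.05 there were 8 of the 23, all lower in HCR trained rats, against 8.20% of all probe sets in that direction. They were in Igf1, Igf2, Igf2r, Igfbp3 and Igfbp5. Groups did not overlap for 6 of the 23, all lower in HCR, against 6.00% of all probe sets. Of the 10 brightest probe sets 7 were lower in HCR and the median was -0.39, beside 0.04 over all probe sets.

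Igf1 probe set 3 read 5.85, 5.33, 5.46 and 5.69 in HCR trained rats, against 6.50, 6.61, 6.46 and 6.12 in LCR trained rats. Every HCR trained rat was below every LCR trained rat. Its call held in 10 of 26 alternative settings, over which the adjusted p ranged from 0.00950 to 0.430. It was lost with quantile normalization (0.0567), median centring (0.0503), the replicate number as a block (0.0818), the beta-actin covariate (log2 difference -0.61, adjusted p = 0.430) and averaged probe sets (-0.76, adjusted p = 0.0855). Leaving out single arrays, it was lost without HCR trained 2 (0.133), HCR trained 3 (0.0548) or HCR trained 4 (0.0956), without HCR sedentary 1 (0.0539) or HCR sedentary 3 (0.0520), without any LCR trained array (0.0620 to 0.149), and without LCR sedentary 2 (0.0511) or LCR sedentary 4 (0.0556). Without both HCR sedentary 2 and HCR trained 3 it held, at -0.80 and an adjusted p of 0.0333, where 1315 of all probe sets passed. The sign stayed negative in every one of these settings.

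Igf1 probe set 1 differed by -0.89 between trained HCR and LCR rats (95% confidence interval -1.33 to -0.45, adjusted p = 0.0606), again without overlap, 7.79 to 8.90 in HCR against 9.06 to 9.46 in LCR. It passed without HCR trained 1, the highest HCR trained rat (adjusted p = 0.0356), or without HCR sedentary 2 (0.0377). In these fits 229 and 651 of all probe sets passed, against 116 as reported. It passed in 4 of 26 alternative settings and was -0.51 with the beta-actin covariate. Igf1 probe set 2 differed by -0.53 with overlap. Igf2 differed by -1.06 (95% confidence interval -1.71 to -0.42, adjusted p = 0.0907), 8.62 to 9.47 in HCR against 9.59 to 10.92 in LCR. Igf2r probe set 1 differed by -0.64 (adjusted p = 0.112), 9.48 to 9.97 in HCR against 10.20 to 10.51 in LCR, and passed without HCR sedentary 2 (0.0290). Neither gene's groups overlapped. With the beta-actin covariate the differences were -0.64 for Igf2 and -0.20 for Igf2r. Without both HCR sedentary 2 and HCR trained 3, Igf1 probe set 1 was at -0.86 and Igf2r at -0.57, both past the threshold (adjusted p = 0.0405 and 0.0331), and Igf2 was at -0.92 (adjusted p = 0.0812). In that setting 1315 of all probe sets passed, against 116 as reported. None of these 3 differences was larger in size than with all arrays.

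Igfbp5 was lower in HCR trained than in LCR trained rats on all 5 probe sets, by 1.43 to 0.07 log2 units, and on none past the threshold. Probe set 4, 1396152_s_at, read 5.76, 4.79, 6.14 and 5.09 in HCR trained rats, against 7.73, 6.84, 6.35 and 6.59 in LCR trained rats, a difference of -1.43 without overlap (SE 0.44, adjusted p = 0.106). Probe sets 2 and 5 differed by -1.13 (adjusted p = 0.104) and -0.92 (adjusted p = 0.134), the brightest, 1370960_at, by -0.42 (adjusted p = 0.290) and probe set 3 by -0.07. The size of the difference thus depended on the probe set. Over the 16 arrays probe sets 2, 4 and 5 correlated with each other at 0.93 to 0.99, probe set 1 with them at 0.78 to 0.83, and probe set 3 with the others at 0.35 to 0.54. With the beta-actin covariate probe sets 2, 4 and 5 gave -0.71, -0.76 and -0.44. Without HCR sedentary 2 and HCR trained 3 they gave -1.38, -1.67 and -1.08, and probe set 2 passed (adjusted p = 0.0447). In that setting 1315 of all probe sets passed, against 116 as reported.

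**Figure D4:**
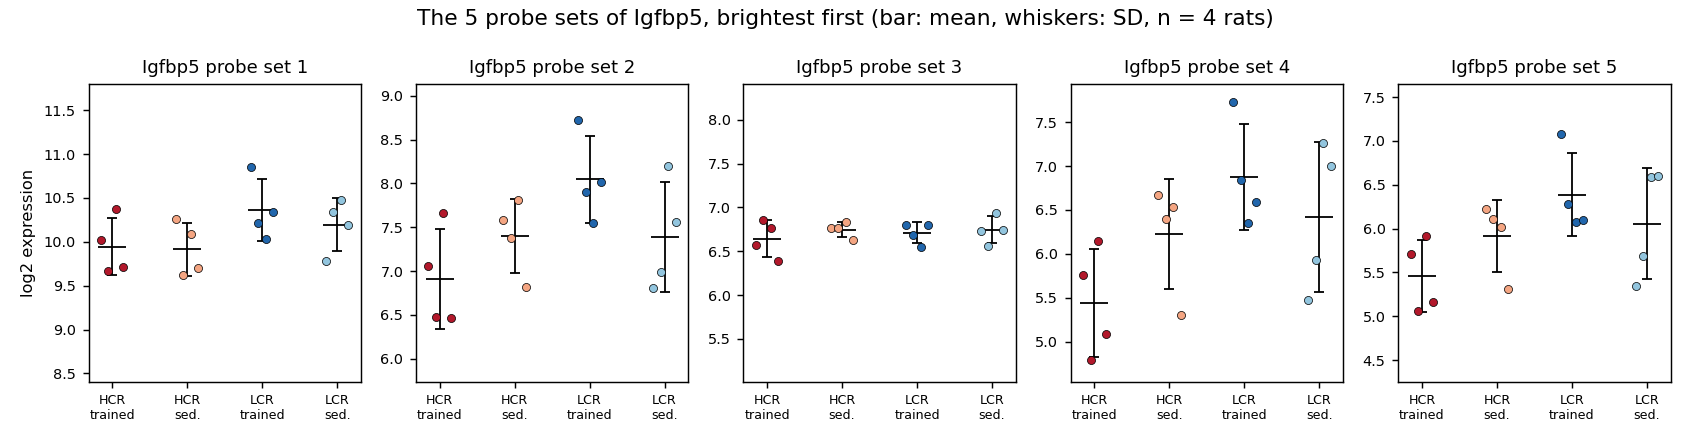
Log2 expression (y axis, the same span in every panel) of the 5 Igfbp5 probe sets, brightest first, in the 4 groups (x axis), with each rat as a point and mean ± SD (n = 4). Probe sets 2, 4 and 5 spread over more than 1.8 log2 units and are lowest in HCR trained rats, while probe set 3 stays between 6.4 and 6.9.

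None of the remaining binding proteins passed between the trained lines. Igfbp3 was 0.42 lower in HCR on probe set 1 (adjusted p = 0.222) and 0.06 lower on probe set 2. Igfbp6 was 0.36 and 0.45 lower (adjusted p = 0.376 and 0.375), and Igfbp7 0.11 lower. Igfbp2 was 0.14 and Igfbp4 0.07 higher in HCR. Igf1r differed by 0.01 and -0.10 on its 2 probe sets.

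Between sedentary rats of the 2 lines none of the 23 probe sets passed (0.00966% of all probe sets did, 3 probe sets). An unadjusted p under 0.05 was found for 2, both higher in HCR (3.63% of all probe sets). Igf1r read 7.39, 7.56, 7.49 and 7.56 in HCR sedentary rats, against 7.36, 7.34, 7.21 and 7.31 in LCR sedentary rats. These groups did not overlap (2.23% of all probe sets were higher without overlap), with a difference of 0.19 (95% confidence interval 0.03 to 0.36, adjusted p = 0.586). Igf1 probe set 1 was 0.47 higher in HCR (adjusted p = 0.590), with overlap. Igf2 differed by 0.09 and Igf2r by 0.07. Over the 10 brightest probe sets 9 were higher in HCR sedentary rats, with a median of 0.12 beside 0.01 over all probe sets.

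Averaged over both lines, training gave no probe set of the 23 past the threshold (0.00644% of all). Igf2 was 0.77 lower in trained rats (adjusted p = 0.225), the 1 probe set with an unadjusted p under 0.05 (4.26% of all were lower). Averaged over training states, HCR over LCR gave none past the threshold either (0.0870% of all), while 6 of the 23 had an unadjusted p under 0.05, all lower in HCR (4.53% of all): Igf1 probe set 3, Igf2 probe set 1 and Igfbp5 probe sets 1, 2, 4 and 5. Igfbp5 probe set 4 had the largest of these, -0.81 (adjusted p = 0.401).

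By group mean, Igf1 stood at 8.36 in HCR trained, 9.26 in HCR sedentary, 9.25 in LCR trained and 8.79 in LCR sedentary rats. The 2 highest groups had almost the same mean and overlapping values, and LCR sedentary rats lay between them and HCR trained rats, overlapping HCR trained rats by the top one at 8.90 and HCR sedentary rats by the lowest one at 8.87. For Igf2 the means were 9.06 in HCR trained, 10.41 in HCR sedentary, 10.12 in LCR trained and 10.31 in LCR sedentary rats. The 3 higher groups overlapped one another and HCR trained rats lay below all 12 other rats. For Igf2r the means were 9.68, 10.18, 10.32 and 10.12 in the same order of groups. HCR trained and HCR sedentary rats overlapped, and the 3 higher groups overlapped one another.

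Measures of the arrays and of cell and fibre types also differed between these groups. The beta-actin index was 1.90 ± 0.35 in HCR trained, 1.18 ± 0.54 in HCR sedentary, 1.27 ± 0.14 in LCR trained and 1.65 ± 0.32 in LCR sedentary rats (SD, n = 4), an order opposite to that of Igf1. The mean of 10 fibroblast and matrix markers ranged over 9.86 to 10.27 in HCR trained, 10.27 to 12.25 in HCR sedentary, 10.40 to 11.91 in LCR trained and 9.99 to 10.89 in LCR sedentary rats. All 10 were lower in HCR trained than in HCR sedentary rats and all 10 higher in LCR trained than in LCR sedentary rats, though in neither did any pass the threshold. Between HCR trained and LCR trained rats, where Igf1 probe set 3 passed, all 10 were lower in HCR, 8 of them with an unadjusted p under 0.05. Of all probe sets 37.5% were lower there, and 8.20% were lower with an unadjusted p under 0.05. Dcn, the matrix proteoglycan decorin, passed there (log2 difference -0.66, adjusted p = 0.0391). The mean of 12 macrophage and leukocyte markers ranged over 7.30 to 8.09, 7.81 to 9.21, 8.05 to 8.58 and 7.56 to 8.07 in the same order of groups, with all 12 lower in HCR trained rats and all 12 higher in LCR trained rats than in the sedentary rats of their line. Of these 12, 11 were lower in HCR trained than in LCR trained rats, 1 with an unadjusted p under 0.05 and none past the threshold. In sedentary rats all 10 matrix and all 12 macrophage and leukocyte markers were higher in HCR than in LCR, none past the threshold. Their median differences were 0.67 and 0.54, beside 0.01 over all probe sets. The mean of 9 fast fibre markers ranged over 11.53 to 13.87 in HCR trained, 10.37 to 11.56 in HCR sedentary, 10.66 to 11.19 in LCR trained and 10.07 to 10.96 in LCR sedentary rats. In HCR trained over HCR sedentary rats 6 were higher and 3 lower, with 1 past the threshold (0.187% of all probe sets). Over LCR trained rats 5 were higher and 4 lower, with 1 past the threshold (0.374% of all). All 9 slow fibre markers were lower in HCR trained than in HCR sedentary rats (median -0.60, beside 0.00 over all probe sets). They were also all lower than in LCR trained rats (median -0.58, beside 0.04). None had an unadjusted p under 0.05. The slow fibre mean was 11.15 in HCR trained 3 and 13.64 to 13.78 in the other HCR trained rats. None of these markers lay below the 40th percentile. In bulk muscle fewer cells of a type and less RNA per cell cannot be told apart. The part of these measures in the IGF differences was not tested beyond the beta-actin covariate.

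As a description over the 16 arrays, which share groups, array quality and tissue makeup, Igf1 correlated with the beta-actin index at -0.85 (-0.71 within groups) and with the fibroblast and matrix mean at 0.75 (0.55 within groups). Igf2r correlated with them at -0.85 and 0.81, and Igf2 at -0.65 and 0.72. With the fast fibre mean Igf1, Igf2 and Igf2r correlated at -0.42, -0.62 and -0.39 (0.22, 0.02 and 0.19 within groups). Igfbp6 had the highest correlation with the matrix mean, 0.85. On their brightest probe sets Igf1r, Igfbp5 and Igfbp7 correlated with the beta-actin index at -0.15, -0.18 and -0.20. Other probe sets of these genes gave stronger values: -0.59 for Igf1r probe set 2, and -0.58, -0.64 and -0.62 for Igfbp5 probe sets 2, 4 and 5, which had the largest Igfbp5 differences.

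**Figure D5:**
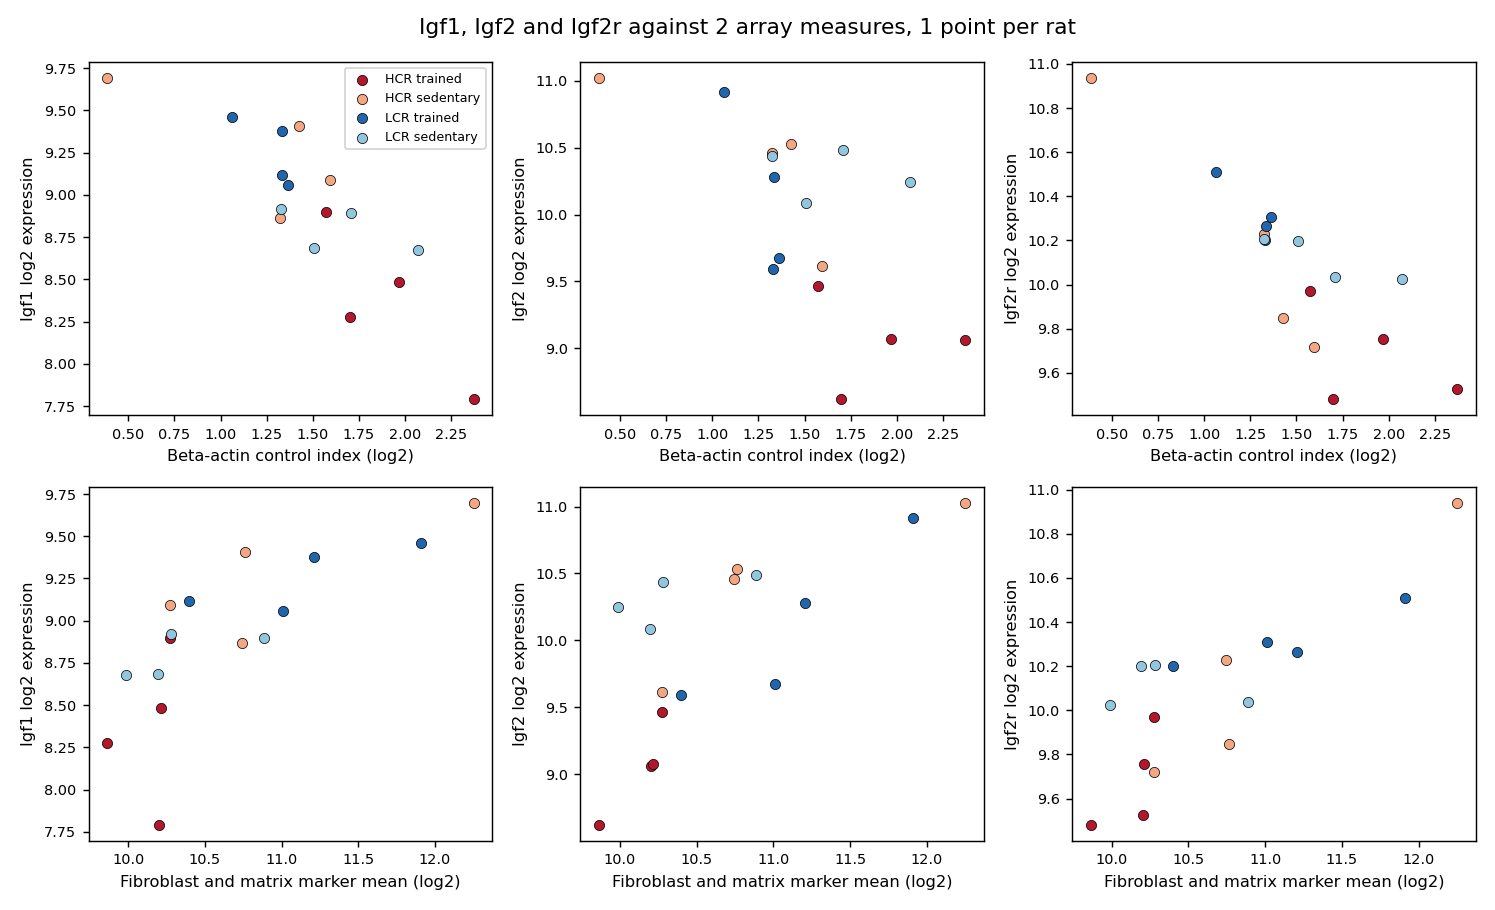
Log2 expression of Igf1, Igf2 and Igf2r (y axes, brightest probe sets) against the beta-actin control index (upper row, x axis in log2 units) and the mean of 10 fibroblast and matrix markers (lower row, log2). Each point is 1 of the 16 rats, coloured by group. HCR sedentary 2 lies at the far left of the upper row (index 0.38) and the far right of the lower row (12.25), with the highest value of all 3 genes.

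Among the IGF genes themselves, Igf1 and Igf2 correlated at 0.75, Igf1 and Igf2r at 0.75 and Igf2 and Igf2r at 0.78 over the 16 arrays, on brightest probe sets. Within groups these were 0.60, 0.57 and 0.69. The lowest correlations were those of Igf1r with Igfbp5, -0.61, and of Igf2r with Igfbp2, -0.60. These depended on the probe set: with probe set 2 of Igf1r and of Igf2r they were 0.03 and -0.36. Igfbp2 and Igfbp5, which lie next to each other in the rat genome, correlated at -0.30. Probe sets of 1 gene correlated at 0.76 to 0.88 for Igf1, 0.48 for Igf1r, 0.61 for Igf2r, 0.37 for Igfbp3 and 0.96 for Igfbp6.

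The genes outside the family whose pattern was most like a member's were found among 14214 probe sets by Pearson's r over the 16 arrays. For Igf1 they were Spsb1 (0.91), Scamp2 (0.90) and Hspb7 (0.89), for Igf2 Rhoa (0.89), Acbd3 (0.88) and Syncrip (0.87), and for Igf2r Ckap4 (0.96), Hnrnpa3 (0.92) and Eif4g2 (0.92). For Igf1r they were Cstf3 (0.88), Gltp (0.85) and Use1 (0.84). For the binding proteins the first was Oprm1 for Igfbp2 (0.91), Id4 for Igfbp3 (0.92), Irak3 for Igfbp4 (0.88), Adk for Igfbp5 (0.89), Tm9sf3 for Igfbp6 (0.95) and Itm2b for Igfbp7 (0.84). These are the highest of many candidates and are given as a description.

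Of the genes listed as acting before and after the receptor, 1 passed the threshold. Of 11 measured IGF partners and proteases (binding partners, the proteases that free IGF, and IGF2 mRNA-binding proteins) none passed in any of the 7 comparisons, and likewise of 8 genes of the growth hormone axis, which drives Igf1, and of 18 genes of PI3K, AKT and mTOR. Of 11 receptor kinases and adaptors, Gab1, a docking protein that links receptor kinases to PI3K, passed. It did so for training in HCR and between the trained lines, where 0.187% and 0.374% of all probe sets passed. It averaged 7.96 ± 0.09 in HCR trained, 7.46 ± 0.14 in HCR sedentary, 7.49 ± 0.06 in LCR trained and 7.61 ± 0.17 in LCR sedentary rats (SD, n = 4). Gab1 rose by 0.50 with training in HCR (SE 0.09, adjusted p = 0.0475) and was 0.48 higher in HCR trained than in LCR trained rats (SE 0.09, adjusted p = 0.0391), with no overlap in either. These comparisons share the HCR trained rats. The first call held in 6 of 26 alternative settings and the second in 14, with adjusted p of 0.509 and 0.380 under the beta-actin covariate. Leaving out 1 array, the first held without HCR trained 3, HCR sedentary 4, LCR sedentary 2 or LCR sedentary 4 (0.0346 to 0.0487) and was lost without any other (up to 0.124). The second was lost without HCR trained 1, 2 or 4, HCR sedentary 1 or 3, or any LCR trained array (0.0507 to 0.1196).

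Others of these lists had an unadjusted p under 0.01 without passing, and not every comparison is given for each. Sos1, which activates Ras, differed by 0.30 with training in HCR and by -0.30 in LCR (adjusted p = 0.116 and 0.317), an interaction of 0.60 (adjusted p = 0.0966). Its other probe set gave 0.09, -0.10 and an interaction of 0.19 (adjusted p = 0.454). Tsc1, a brake on mTOR, differed by 0.27 and -0.43 (adjusted p = 0.173 and 0.248), an interaction of 0.71 (adjusted p = 0.0966), on its brighter probe set. Its other one gave -0.09, -0.06 and an interaction of -0.03 (adjusted p = 0.919), so the opposite signs rest on 1 of 2 probe sets. Pdpk1, the kinase that activates AKT, differed by 0.27 with training in HCR (adjusted p = 0.0640) and by 0.13 on its other probe set (adjusted p = 0.645). Pik3r1, a regulatory subunit of PI3K, differed by -0.87 with training in HCR (adjusted p = 0.125). It was 0.90 higher in HCR between sedentary rats (adjusted p = 0.467), with an interaction of -1.21 (adjusted p = 0.135). The interaction was -1.27 for Gsk3b (adjusted p = 0.139) and 0.35 for Tsc2 (adjusted p = 0.135). For Rictor it was 0.35 (adjusted p = 0.135) and 0.09 on its other probe set. Tsc2 also differed by -0.24 with training in LCR (adjusted p = 0.360). Foxo1, a transcription factor that AKT holds back, was 1.19 lower in HCR trained than in LCR trained rats (adjusted p = 0.0877) on its brightest probe set, while its other 2 gave 0.06 and -0.16 (adjusted p = 0.679 and 0.245). Rps6kb1, the S6 kinase below mTOR, was 0.56 higher in HCR on 1 probe set (adjusted p = 0.0921) and 0.44 lower on the other (log2 difference -0.44, adjusted p = 0.255), so its direction is not settled. Igfbp1, a binding protein outside the 10 genes, was 0.27 higher in HCR trained than in LCR trained rats (adjusted p = 0.104) at a mean of 5.23, which is below the 40th percentile. Irs3, with a mean of 5.16 also below it, was 0.29 higher with training in HCR (adjusted p = 0.134). Stc2 differed by -0.28 with training in LCR (adjusted p = 0.326) and by -0.27 between sedentary lines (adjusted p = 0.503). Its interaction was 0.40 (adjusted p = 0.127). The median difference over the PI3K, AKT and mTOR genes was 0.06 for training in HCR and -0.14 in LCR, beside 0.00 and -0.02 over all probe sets.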

How the data were processed

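Total RNA of 16 soleus muscles was hybridised to Affymetrix rat expression arrays, 1 array per rat. The authors deposited log2 values per probe set. Per the submitters' processing notes the tools were RMA, which subtracts background, equalises probe distributions and combines the probes of a set, and limma. No versions were stated. Array medians were 5.90 to 5.98. RMA removes any shift common to the whole array, and no detection calls were given, so the number of arrays limits the precision. Joint summarisation of all arrays was not stated.

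After 57 control probe sets were left out, 31042 were fitted in limma 3.58.1 (R 4.3.3): 4 group means, 12 residual degrees of freedom and Benjamini-Hochberg adjustment within each of 7 comparisons. Names came from the platform annotation: 20826 probe sets had 1 symbol, 436 several and 9780 none. Comparisons share groups, so their results are not independent. Alternatives were other normalizations, moderation, filters, covariates, blocks and sets of arrays. The code was tested on simulated data. The members, lists and comparisons were chosen with earlier results of these data known. All members are named, with the pathway genes of unadjusted p under 0.01 that the text describes. The 3 genes of closest pattern are named for each ligand and receptor, and the closest 1 for each binding protein.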

Additional observations from a re-analysis of the deposited data

Results flagged for a closer look

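In 4 of 92 combinations of a member probe set and a group, 1 rat lay far from the other 3, by a Dixon test that chance passes in about 1 of 20. Igfbp6 read 10.96 on probe set 1 and 10.75 on probe set 2 in HCR sedentary 2, against 9.93 to 10.01 and 9.44 to 9.62 in the other HCR sedentary rats. That array also had the highest fibroblast and matrix mean, 12.25, and whether this bears on Igfbp6 was not tested. Igf2r probe set 2 read 9.12 in LCR sedentary 1, against 8.95 to 8.96 in the other 3. Igfbp4 read 8.25 in the same rat, against 7.86 to 7.89.

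In 5 probe sets all 4 HCR trained rats lay below the HCR sedentary mean and all 4 LCR trained rats above the LCR sedentary mean. The share of all probe sets with this pattern was not computed, so the count cannot be set against the array. Igfbp5 probe set 5 met the rule narrowly, as HCR trained 3 read 5.91342 against an HCR sedentary mean of 5.91356. Other probe sets also had differences of opposite sign, but not in every trained rat. The training difference in HCR minus that in LCR was -1.36 for Igf1 probe set 1, -1.10 for probe set 2 and -1.12 for probe set 3, with adjusted p of 0.0983, 0.170 and 0.0983. It was -0.70 for Igf2r probe set 1 (adjusted p = 0.212) and -0.78 for Igfbp5 probe set 5 (adjusted p = 0.365). None passed the threshold of 0.05.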

How the results depend on the processing

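Between trained HCR and LCR rats the count of IGF probe sets past the threshold, 1 as reported, was 0 with quantile normalization, median centring, the replicate block, the beta-actin covariate or averaged probe sets, 2 with only the 2 groups compared, 4 without HCR sedentary 2 and HCR trained 3, 7 with array weights, and 0 to 3 leaving out single arrays. Over all 31042 probe sets 116 passed there as reported and 836 with only the 2 groups compared. Without HCR sedentary 2 and HCR trained 3 it was 1315, with array weights 3525, and leaving out single arrays 9 to 651. The IGF count thus rose in settings where calls rose over the whole array. For training in HCR the IGF count of 0 became 1 with array weights and 0 to 1 leaving out single arrays, and for training averaged over lines 1 with array weights. With array weights 1304 and 1148 of all probe sets passed in these comparisons, against 58 and 2 as reported. The other IGF counts stayed at 0 in every setting run. Igf2r probe set 1 changed sign with the beta-actin covariate, to 0.0015 for training in HCR and 0.0611 for the interaction, and the cause was not tested. All other followed differences kept their sign.

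Over all probe sets the counts ranged over 0 to 1304 for training in HCR (58 as reported), 0 to 321 in LCR (1), 1 to 10 between sedentary lines (3), 5 to 3525 between trained lines (116), 0 to 233 for the interaction (0), 1 to 1148 for training averaged (2) and 15 to 338 for line averaged (27). Arrays with the same replicate number deviated together at correlations of -0.48 to 0.57, so the numbers were not taken as pairing. With the replicate block Igf1 probe set 3 between trained lines had an adjusted p of 0.0818, and 25 probe sets in all passed there.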
